A study of Mus musculus with 42 samples.

Results

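The genes described here are 10 genes of fatty acid oxidation and ketone use, namely Ppara, Cpt1a, Cpt1c, Cpt2, Acadm, Acadl, Hadha, Oxct1, Bdh1 and Slc16a1. They were chosen by name, and each was found once among the 37907 Ensembl gene IDs of the deposited table. Their mRNA was measured by RNA-seq in hypothalamic nuclei cut out by laser capture from adult WT male C57/BL6 mice, either fed ad libitum or killed after a 24-hour fast. The arcuate nucleus (ARC) gave 5 fed and 5 fasted libraries, the ventromedial hypothalamus (VMH) 6 and 6, the dorsomedial hypothalamus (DMH) 5 and 4, and the paraventricular nucleus (PVN) 6 and 5. All 42 libraries shared genotype, sex and strain, and nucleus and nutritional state were the factors named in the labels. The nuclei were cut from the same brains, but the labels do not say which libraries share a mouse.

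In a fast, adipose tissue releases fatty acids and the liver turns part of them into ketone bodies, which the brain takes up as fuel. Long-chain fatty acids enter mitochondria through the carnitine shuttle and are shortened by repeated rounds of beta-oxidation, while ketone bodies cross membranes on monocarboxylate transporters and are converted back to acetyl-CoA. The transcription factor PPARα, which pairs with the retinoid X receptor on DNA, induces many of these enzymes in fasted liver. In the brain, fatty acid oxidation is assigned mainly to astrocytes, and neurons are known as users of ketone bodies.

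The files hold RPKM, reads per kilobase of exon scaled to the reads of the library, to which the authors had added a small count, so that a gene without reads reads slightly above 0. Depth was estimated from these values at 4.55 M reads in the mean library, with a range from 1.32 to 13.2 M. In the DMH the fasted libraries were deeper than the fed ones (7.36 ± 4.0 against 3.90 ± 0.87 M reads, SD, n = 4 and 5, two-sided exact permutation p = 0.0476). The 12 markers of single nuclei that were examined, of 13 listed, were each highest in their own nucleus in the fed state. In such tissue pieces, fewer cells of a type and less RNA per cell cannot be told apart.

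Oxct1 was the most abundant of the 10 genes and the one that differed most clearly between nuclei, being highest in the VMH in both nutritional states, whereas Cpt2 was lowest in the fed VMH and Cpt1a highest in the fed PVN. None of the 10 genes passed the test for a change with the fast in any nucleus.

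The level of each gene was first compared per length of exon over the 42 libraries. Oxct1, the mitochondrial transferase that commits ketone bodies to oxidation, had a median of 46.0 RPKM (34.3 to 85.9). Cpt1c, the brain form of carnitine palmitoyltransferase 1, followed with a median of 12.9 RPKM (8.11 to 18.5). Hadha, the alpha subunit of the mitochondrial trifunctional protein, had a median of 12.2 RPKM (6.82 to 22.7). By median RPKM, Oxct1 thus stood several-fold above the carnitine palmitoyltransferase genes and those of beta-oxidation, while the ketone enzyme Bdh1 did not. RPKM rests on the exon length, 3701 bases for Oxct1 and 8730 for Hadha. In reads their medians were closer, at about 759 and 473 per library.
Acadm, the medium-chain acyl-CoA dehydrogenase, had a median of 8.01 RPKM (4.39 to 22.5). For Acadl, its long-chain relative, the median was 5.94 RPKM (1.53 to 11.7). Cpt1a, the widely expressed outer-membrane enzyme that limits entry of fatty acids, had a median of 5.27 RPKM (2.56 to 14.2). These 3 enzymes and the next 3 genes formed a middle range in which single libraries overlapped.
The medians were 4.04 RPKM (2.0 to 10.4) for Bdh1, the dehydrogenase that interconverts the ketone bodies 3-hydroxybutyrate and acetoacetate, 3.96 RPKM (2.09 to 16.5) for Slc16a1, the monocarboxylate transporter MCT1, and 3.96 RPKM (0.950 to 13.1) for Cpt2, the inner-membrane enzyme of the shuttle. Ppara, the gene for PPARα, was the lowest, with a median of 0.514 RPKM (0.236 to 2.83), and 8 of the 42 libraries sat at the value of a gene without reads. With the added count included, the values stood for a median of about 759 reads per library for Oxct1, 47.5 for Cpt2 and 9.57 for Ppara. The median coefficient of variation within a group was 13.3% for Oxct1, 43.8% for Cpt2 and 86.7% for Ppara, so a fold that would be plain in Oxct1 could not be resolved in Ppara at this depth.

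**Figure D1:**
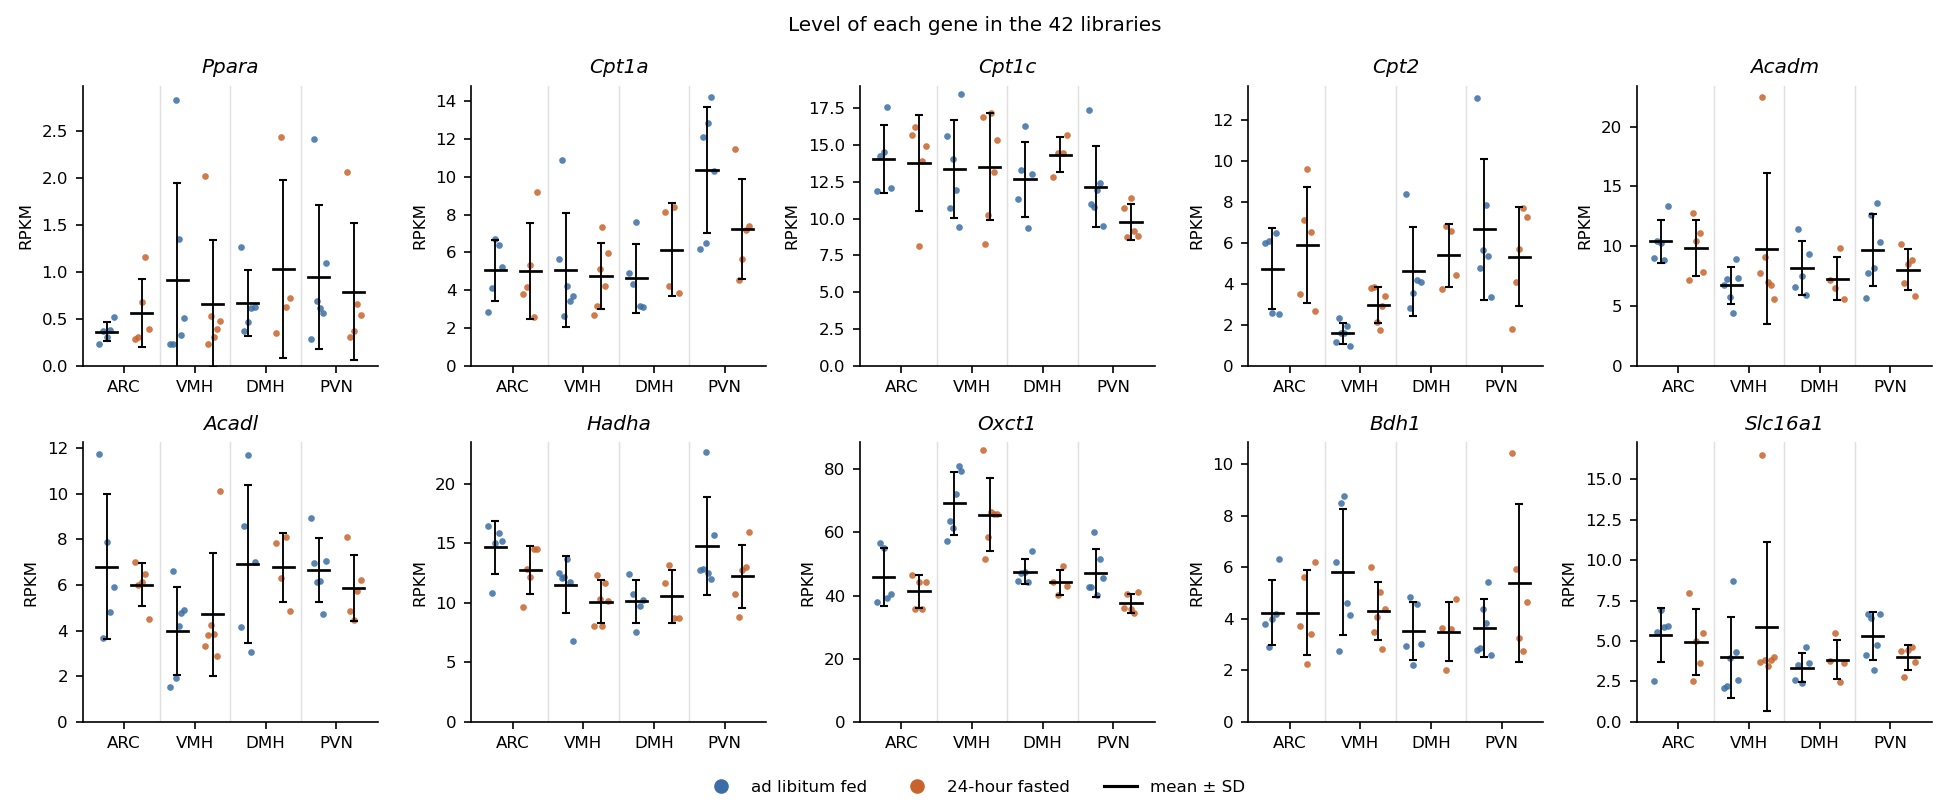
RPKM of each of the 10 genes in every library, by nucleus and nutritional state. Each dot is a library, and bars give the mean ± SD of the group. Oxct1 was highest in the VMH, Cpt2 lowest in the fed VMH and Cpt1a highest in the fed PVN, and fed and fasted libraries overlapped in each nucleus.

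Whether the nuclei differ was asked separately in the fed and in the fasted state, by an F test in limma on log2(RPKM + 1) over 33579 genes. Of these, 4742 stood at the value of a gene without reads in all libraries. They could not pass, which lowers every share of all genes tested. All 10 genes passed the filter on low values. In the fed state 4 of the 10 passed an adjusted p of 0.1, against 12.4% of all genes tested, namely Oxct1, Cpt2, Cpt1a and Hadha. In the fasted state 1 of the 10 passed, against 11.9% of all genes tested, and this was Oxct1.

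Since Oxct1, Cpt2 and Cpt1a carry the differences between nuclei, the 250 bases before their start sites are shown, with every match to AGGTCA on either strand in capitals. AGGTCA is the core that PPARα and other nuclear receptors read. The sequences are from RefSeq on GRCm38.p6, which held at least 1 start for all 10 genes.
Oxct1 (chr15:4026178-4026427, + strand): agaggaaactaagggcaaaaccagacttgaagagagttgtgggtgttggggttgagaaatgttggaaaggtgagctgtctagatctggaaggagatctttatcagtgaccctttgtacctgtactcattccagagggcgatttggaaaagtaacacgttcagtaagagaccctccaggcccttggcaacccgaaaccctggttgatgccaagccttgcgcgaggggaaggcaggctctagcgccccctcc
Cpt2 (chr4:107923590-107923839, - strand): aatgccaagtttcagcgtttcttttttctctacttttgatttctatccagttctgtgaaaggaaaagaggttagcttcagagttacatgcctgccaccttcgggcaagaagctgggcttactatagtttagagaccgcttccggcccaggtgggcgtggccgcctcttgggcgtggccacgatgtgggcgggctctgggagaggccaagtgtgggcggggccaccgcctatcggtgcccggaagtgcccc
Cpt1a (chr19:3323051-3323300, + strand): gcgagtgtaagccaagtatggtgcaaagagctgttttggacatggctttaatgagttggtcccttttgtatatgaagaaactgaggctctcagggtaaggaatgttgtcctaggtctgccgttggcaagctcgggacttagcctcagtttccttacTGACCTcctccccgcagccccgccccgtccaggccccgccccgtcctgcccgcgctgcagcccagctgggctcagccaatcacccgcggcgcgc
Cpt1a held 1 match, on the opposite strand, which began 94 bases before the start, and Oxct1 and Cpt2 held 0. Cpt1c and Acadm held 1 match each, so that 3 of the 10 genes had one, while 14.0% of 32851 promoter windows of this length did. The direct repeat AGGTCANAGGTCA, in which N is any base, was found in none of the 10 and in 0.0335% of all windows. A match is a run of letters and not a binding site.

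Oxct1 (ENSMUSG00000022186, chr15:4026383-4155344, + strand) differed between nuclei in the fed state with a range of group means of 0.59 log2 (adjusted p = 0.000442). The 6 fed VMH libraries ran from 57.2 through a median of 68.0 to 81.1 RPKM. The fed ARC libraries read 37.9, 56.6, 54.9, 39.2 and 40.4 RPKM, and the fed DMH libraries 44.7, 47.2, 47.5, 44.2 and 54.1 RPKM. In the fed PVN the lowest, median and highest values were 40.2, 44.2 and 60.1 RPKM. Every fed VMH library stood above every ARC and DMH library, and only the highest PVN library reached into the VMH range.
The means were 69.2 ± 9.9 RPKM in the VMH (SD, n = 6), 47.6 ± 3.9 in the DMH (n = 5), 47.1 ± 7.5 in the PVN (n = 6) and 45.8 ± 9.2 in the ARC (n = 5). On the log2 scale the ARC minus VMH difference was −0.59 (SE 0.12, adjusted p = 0.000610), the VMH minus DMH difference 0.52 (SE 0.12, adjusted p = 0.00444) and the VMH minus PVN difference 0.54 (SE 0.11, adjusted p = 0.000853). In these 3 pairs 7.9%, 5.24% and 9.84% of all genes tested passed. The DMH, PVN and ARC, next to each other in the order, did not differ beyond their spread (DMH minus PVN 0.02, 95% interval −0.22 to 0.26; ARC minus PVN −0.05, interval −0.29 to 0.19).

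After the fast the same nucleus was highest for Oxct1, with a range of 0.78 log2 (adjusted p = 2.0e-05). The 6 fasted VMH libraries ran from 51.4 through 65.7 to 85.9 RPKM. The fasted ARC libraries read 46.4, 35.7, 44.4, 35.9 and 44.2 RPKM, the DMH libraries 44.2, 40.1, 49.4 and 43.1 RPKM, and the PVN libraries 36.0, 40.3, 35.7, 34.3 and 41.1 RPKM. The fasted VMH thus overlapped with no other nucleus. Its mean of 65.6 ± 11.5 RPKM (SD, n = 6) was 1.75 times that of the fasted PVN (37.5 ± 3.0, n = 5), and the VMH minus PVN difference was 0.78 log2 (SE 0.12, adjusted p = 9.81e-06, with 9.24% of all genes passing). In the fasted state the DMH minus PVN difference was 0.23 (95% interval −0.03 to 0.50), which did not pass (adjusted p = 0.559). The libraries fall into 3 sets by their recurring lowest values, taken here as batches since the labels name none, and the VMH had the highest mean Oxct1 in 6 of 6 combinations of batch and nutritional state.

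The summed level of neuron markers, like Oxct1, was highest in the VMH, but did not follow its order in the other nuclei. The summed level of 7 neuron markers (Snap25, Syt1, Rbfox3, Tubb3, Map2, Stmn2 and Nefl) ran from 1393 to 1605 RPKM in the fed VMH libraries and from 1306 to 1689 in the fasted ones, while the other nuclei lay between 729 and 1129 when fed and between 647 and 1086 when fasted. The fasted PVN, where Oxct1 was lowest, had a neuron marker sum of 1009 ± 76.1 RPKM (n = 5), above the 713 ± 48.5 of the fasted ARC (n = 5). Snap25 had the highest level of the 7 in each nucleus and weighs most in the sum. Stmn2 and Tubb3 were highest in the PVN in both states, and Syt1 was highest in the DMH when fasted. None of the 7 was at the no-read value. Among them, the log2 difference between the fed VMH and the mean of the other nuclei was 1.37 for Nefl, 1.3 for Rbfox3, 1.14 for Snap25, 0.51 for Syt1, 0.29 for Map2, 0.09 for Stmn2 and −0.11 for Tubb3, against 0.55 for Oxct1. The summed level of 6 oligodendrocyte markers was also highest in the VMH, at 209 to 336 RPKM when fed against 80.3 to 188 in the other nuclei. The part of cell composition in the difference of Oxct1 was not tested. Of the exon bases of Oxct1, 12.6% overlap BC037032, and 11.2% of its 50-base stretches occur in transcripts of another gene, so that some reads may belong elsewhere.

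**Figure D2:**
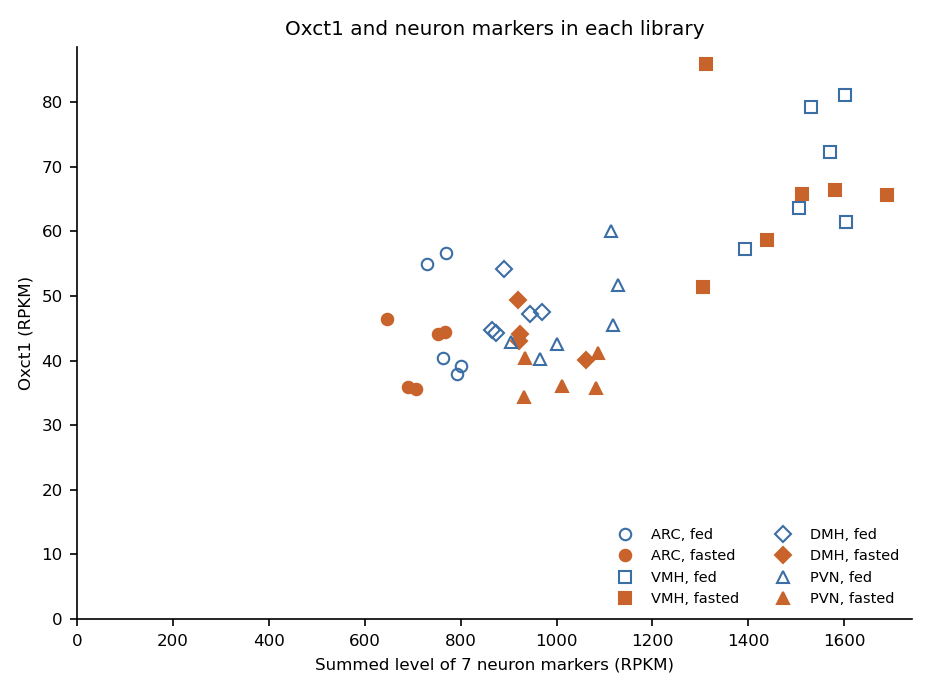
Oxct1 (RPKM, vertical axis) against the summed RPKM of 7 neuron markers (horizontal axis), 1 symbol per library, with open symbols for fed and filled symbols for fasted mice. VMH libraries lie at 1306 RPKM of neuron markers or more and at 51.4 to 85.9 RPKM of Oxct1, apart from the other nuclei on the horizontal axis.

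Cpt2 (ENSMUSG00000028607, chr4:107903981-107923610, - strand) was lowest in the fed VMH, with a range between nuclei of 1.48 log2 (adjusted p = 0.00192). The fed VMH libraries ran from 0.950 through 1.58 to 2.35 RPKM. In the fed ARC they read 5.99, 6.11, 2.59, 6.48 and 2.55 RPKM, in the fed DMH 8.38, 2.82, 3.55, 4.21 and 4.08 RPKM, and in the fed PVN 3.36 at the lowest, 5.49 at the median and 13.1 at the highest. No fed VMH library reached the lowest library of any other nucleus.
The means were 1.59 ± 0.51 RPKM in the VMH (SD, n = 6), 4.61 ± 2.18 in the DMH (n = 5), 4.74 ± 1.99 in the ARC (n = 5) and 6.67 ± 3.45 in the PVN (n = 6). The VMH minus PVN difference of −1.48 log2 (SE 0.29, adjusted p = 0.000413), the ARC minus VMH difference of 1.09 (SE 0.30, adjusted p = 0.0201) and the VMH minus DMH difference of −1.06 (SE 0.30, adjusted p = 0.0362) all passed. DMH, ARC and PVN did not differ beyond their spread (DMH minus PVN −0.42, 95% interval −1.04 to 0.19).
In the fasted state the VMH was again the lowest, with 2.98 ± 0.87 RPKM against 5.31 ± 2.42 in the PVN, 5.39 ± 1.54 in the DMH and 5.88 ± 2.83 in the ARC, but the F test did not pass (range 0.72 log2, adjusted p = 0.332). The VMH had the lowest mean in 5 of the 6 combinations of batch and state, and the PVN in the remaining one. Whether the difference between nuclei changed with the fast was tested by the interaction of nucleus and state, which did not pass (adjusted p = 1).

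Cpt1a (ENSMUSG00000024900, chr19:3322334-3385733, + strand) was highest in the fed PVN, with a range between nuclei of 1.01 log2 (adjusted p = 0.0335). The fed PVN libraries ran from 6.18 through 11.2 to 14.2 RPKM. The fed VMH libraries ran from 2.65 through 3.93 to 10.9 RPKM, while the fed ARC libraries read 2.84, 4.11, 6.69, 6.40 and 5.22 RPKM and the fed DMH libraries 4.90, 4.34, 7.59, 3.16 and 3.09 RPKM. The highest libraries of each of the other nuclei lay within the PVN range. The PVN mean was 10.3 ± 3.4 RPKM (SD, n = 6), and the other means lay between 4.62 ± 1.83 in the DMH (n = 5) and 5.08 ± 3.02 in the VMH (n = 6).
The VMH minus PVN difference was −0.96 log2 (SE 0.28, adjusted p = 0.0259) and the DMH minus PVN difference −1.01 (SE 0.29, adjusted p = 0.0577, a pair in which 3.42% of all genes passed), while the ARC minus PVN difference of −0.89 did not pass (SE 0.29, adjusted p = 0.109). The F test no longer passed without library 4 of the fed PVN (adjusted p = 0.104) or library 5 (adjusted p = 0.119). In the fasted state the PVN mean was 7.24 ± 2.63 RPKM (n = 5) and the F test did not pass (range 0.52 log2, adjusted p = 0.651). The summed level of 7 endothelial markers was also highest in the fed PVN, at 103 to 152 RPKM against 43.9 to 106 in the other nuclei, and its part in the difference of Cpt1a was not tested.

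Hadha (ENSMUSG00000025745, chr5:30118304-30155162, - strand) passed narrowly in the fed state (range 0.50 log2, adjusted p = 0.0914), and it no longer passed in 16 of 31 alternatives. The fed ARC libraries read 16.5, 10.8, 15.0, 15.9 and 15.2 RPKM and the fed DMH libraries 12.4, 10.8, 7.53, 9.70 and 10.2 RPKM. The fed VMH ran from 6.82 through 12.1 to 13.7 RPKM and the fed PVN from 11.99 through 12.8 to 22.7 RPKM. ARC and PVN were thus the higher nuclei, with means of 14.7 ± 2.2 and 14.8 ± 4.1 RPKM, and no single pair of nuclei passed (lowest adjusted p = 0.140, DMH minus PVN).
The remaining 6 genes did not pass in the fed state, with adjusted p from 0.239 for Acadl to 1 for Cpt1c. Acadl had its lowest fed mean in the VMH (3.99 ± 1.93 RPKM, n = 6) and its highest in the DMH (6.90 ± 3.47, n = 5), and on the log2 scale the PVN was the highest, 0.70 above the VMH. For Acadm the lowest fed mean was also in the VMH (6.72 ± 1.54 RPKM) and the highest in the ARC (10.4 ± 1.8). Bdh1 ran the other way, from 3.53 ± 1.13 RPKM in the DMH to 5.83 ± 2.44 in the VMH. Cpt1c was the most even member, between 12.2 ± 2.8 RPKM in the PVN and 14.1 ± 2.3 in the ARC, a range of 0.20 log2. Slc16a1 had fed means from 3.36 ± 0.90 in the DMH to 5.35 ± 1.67 RPKM in the ARC, and Ppara from 0.361 ± 0.104 in the ARC to 0.942 ± 0.768 RPKM in the PVN. For these genes the order of neighbouring nuclei was within the spread between libraries.

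The change with the fast was tested in each nucleus by limma. None of the 10 genes passed, with a count of 0 of 10 for the ARC (0.0566% of all genes tested passed), 0 for the VMH (0.131%), 0 for the DMH (0.0238%) and 0 for the PVN (0.0715%). Without adjustment, a p under 0.05 was reached by 0 of the 10 in ARC libraries (7.5% of all genes), 1 in the VMH (7.31%), 0 in DMH libraries (6.48%) and 1 in the PVN (5.53%). The mean change over the 4 nuclei passed for 0 of the 10 (0.5% of all genes tested passed), with 1 at an unadjusted p under 0.05 (7.14%), and the test of whether the change differs between nuclei passed for 0 (0.00596%), with 0 unadjusted. Exact permutation tests on each gene in each nucleus gave an unadjusted p under 0.05 in 3 of 40 cases. In no case were the fed and fasted libraries of a nucleus apart from each other, which was true of 0.742% of all genes tested for the ARC, 0.277% for the VMH, 1.15% for the DMH and 0.402% for the PVN.
The estimates were negative for 8 of the 10 genes in ARC libraries, with a median of −0.07 log2 (47.5% of all genes that varied were negative). For the VMH the count was 5 and the median −0.01 (48.4%), for the DMH 3 and 0.11 (49.8%), and for the PVN 9 and −0.26 (54.3%). The medians over all genes that varied lay between −0.0012 and 0.0043 log2. A sign without a passing test is a description of these libraries.

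**Figure D3:**
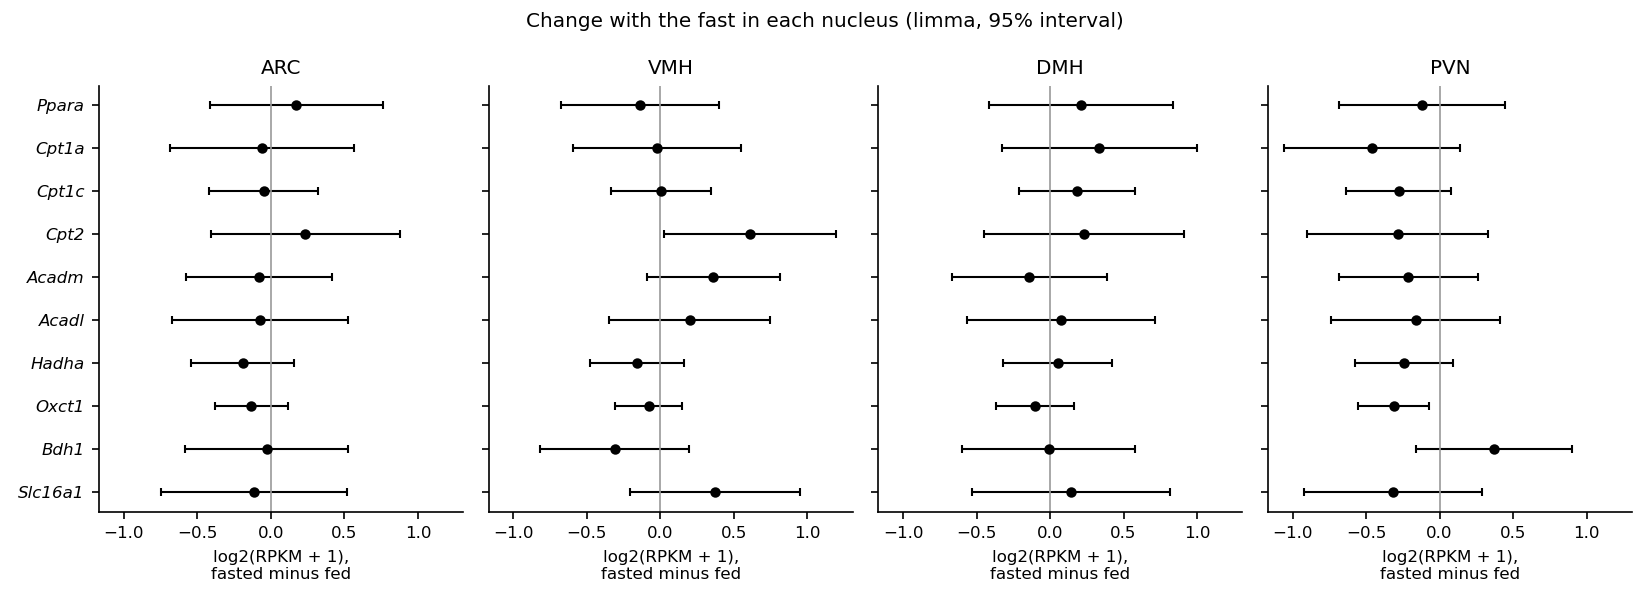
Change with the fast in log2(RPKM + 1), fasted minus fed, for each of the 10 genes in each nucleus, where points are limma estimates and bars 95% intervals. Oxct1 in the PVN and Cpt2 in the VMH are the members whose interval leaves out 0, and neither passed after adjustment.

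Among the ketone-use genes, Oxct1 had the narrowest intervals. In the fasted PVN its mean was 37.5 ± 3.0 RPKM (n = 5) against 47.1 ± 7.5 when fed (n = 6), and 5 of 5 fasted libraries lay below the fed mean. The log2 difference was −0.31 (SE 0.12, 95% interval −0.55 to −0.07), with an unadjusted p of 0.0119 and an adjusted p of 0.734, and a two-sided exact permutation p = 0.0130. Within the 3 batches the PVN difference was −0.24, −0.36 and −0.36. The ARC (−0.13), VMH (−0.08) and DMH (−0.10) also gave estimates below 0, and the mean over the 4 nuclei was −0.16 (SE 0.06, unadjusted p = 0.0137, adjusted p = 0.478). The 95% interval of this mean change was −0.28 to −0.03 log2. Nuclei of 1 brain entered the mean as separate samples, so its p-value and interval can be too small.
Bdh1 (ENSMUSG00000046598, chr16:31422280-31458901, + strand) had fed values of 2.59, 3.36 and 5.45 RPKM (lowest, median and highest) in the PVN, and its fasted PVN libraries read 10.4, 5.92, 3.25, 2.74 and 4.65 RPKM. Most fasted libraries lay within the fed range, and the difference of 0.37 log2 (SE 0.26) did not pass (adjusted p = 1). In the VMH the sign was opposite (−0.31, SE 0.25, adjusted p = 0.852). Of its exon bases, 13.7% overlap Gm15743.
Slc16a1 (ENSMUSG00000032902, chr3:104638668-104658462, + strand) ran from 2.09 through 3.27 to 8.73 RPKM in the fed VMH and from 3.47 through 3.84 to 16.5 RPKM in the fasted VMH. A single fasted library, number 2, set the upper end, and the difference of 0.37 log2 (SE 0.28) did not pass (adjusted p = 0.833). In the PVN the estimate was −0.32 (SE 0.30, adjusted p = 1).

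For the carnitine palmitoyltransferase genes, Cpt2 had the largest estimate of the members, in the VMH. The fed VMH libraries ran from 0.950 through 1.58 to 2.35 RPKM and the fasted ones from 1.77 through 3.17 to 3.85. All 6 fasted libraries lay above the fed mean, although the ranges overlapped. The difference was 0.61 log2 (SE 0.29, 95% interval 0.02 to 1.20), with an unadjusted p of 0.0419, an adjusted p of 0.617 and an exact permutation p = 0.0130. Within the 3 batches it was 0.84, 0.19 and 0.80. In the PVN the estimate was −0.28 (SE 0.30), and the interaction did not pass (adjusted p = 1).
Cpt1a read 11.5, 4.55, 5.62, 7.17 and 7.39 RPKM in the fasted PVN, where the fed median was 11.2 RPKM. The difference of −0.46 log2 (SE 0.29, 95% interval −1.06 to 0.14) did not pass (adjusted p = 1), and the estimate in the DMH was 0.34 (SE 0.33). The interval in the PVN leaves room both for no change and for a fall by 1.06 on the log2 scale.
Cpt1c (ENSMUSG00000007783, chr7:44959372-44974851, - strand) read 10.7, 8.74, 11.4, 9.15 and 8.79 RPKM in the fasted PVN, against 9.50, 11.5 and 17.4 RPKM at the lowest, median and highest of the fed PVN. The difference was −0.28 log2 (SE 0.18, adjusted p = 1, exact permutation p = 0.0476). Its estimates in the ARC (−0.05) and VMH (0.01) were near 0 with SE of 0.18 and 0.17.

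Of the beta-oxidation enzymes, Acadm (ENSMUSG00000062908, chr3:153922357-153944632, - strand) ran from 4.39 through 6.99 to 8.89 RPKM in the fed VMH and from 5.58 through 7.35 to 22.5 RPKM in the fasted VMH. The upper end was again library 2 of the fasted VMH, and the difference of 0.36 log2 (SE 0.22) did not pass (adjusted p = 0.701). The Acadm estimates in the other nuclei were between −0.21 and −0.08.
Acadl (ENSMUSG00000026003, chr1:66830839-66863277, - strand) had estimates of −0.16 to 0.20 log2 with SE of 0.27 to 0.31, and the ranges of fed and fasted libraries overlapped in every nucleus. Hadha was estimated at −0.19 (ARC), −0.16 (VMH), 0.05 (DMH) and −0.24 log2 (PVN), with SE of 0.16 to 0.18. The 95% interval of its mean change was −0.31 to 0.04 log2, so that neither enzyme showed a change that these libraries could resolve.
Ppara (ENSMUSG00000022383, chr15:85734983-85802819, + strand) had estimates between −0.14 and 0.21 log2. In the fasted ARC it read 0.284, 0.307, 0.674, 1.15 and 0.388 RPKM, and in the fed ARC 0.236, 0.366, 0.307, 0.382 and 0.517 RPKM. These values are near that of a gene without reads, and no difference was detectable at this depth.

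Of 58 further genes of these pathways, 56 passed the filter on low values, and Cpt1b and Slc16a3 did not. Fgf21 counted as passing although its no-read value of 1.15 RPKM lies above the 1 RPKM of the filter. Its fed range between nuclei was 0.000489 log2, so its tests cannot show whether it changed. In the mean change over the 4 nuclei 2 of the 56 rose and 1 fell, where 0.5% of all genes tested passed. Nuclei of 1 brain entered this mean as separate samples, so its p-values, here and below, can be too small. The genes that rose, Angptl4 and Ucp2, were both on the list of 5 PPAR targets, and Fabp7, from the list of 12 genes of fatty acid uptake and activation, fell. The rest of the PPAR targets did not pass. These were Pdk4 (0.19 log2, adjusted p = 0.844), Ucp3 (0.09, adjusted p = 0.966) and Plin2 (−0.34, adjusted p = 0.738). None of the 3 remaining shuttle genes, 13 further beta-oxidation genes, 8 peroxisomal genes, 5 further ketone genes or 10 regulators passed. Beside Fabp7 in the VMH (0.131% of all genes passed) and Ucp2 in the PVN (0.0715%), no pathway gene passed in a single nucleus. Calls in single nuclei depended on fitting all groups together. With the nucleus fitted alone, 1 gene in place of 44 passed in the VMH and 3 in place of 24 in the PVN. In the ARC the lowest p belonged to Angptl4 (0.84 log2, adjusted p = 0.445) and Acad9 (0.46, adjusted p = 0.603), in the DMH to Angptl4 (1.24, adjusted p = 0.154) and Fabp7 (−1.19, adjusted p = 0.230), and in the interaction to Ucp2 and Mlycd (adjusted p = 1 for both).

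Angptl4 (ENSMUSG00000002289), a secreted inhibitor of lipoprotein lipase, read 1.07, 0.440, 0.317, 0.918 and 0.606 RPKM in the fed ARC and 4.67, 1.22, 1.45, 1.71 and 1.69 RPKM in the fasted ARC. In the DMH the fed libraries read 0.548, 1.08, 1.49, 0.509 and 0.833 RPKM and the fasted ones 4.68, 2.93, 2.66 and 3.52 RPKM. Fed and fasted libraries stood apart in both nuclei. In the PVN the fed values were 0.666, 1.97 and 2.91 RPKM (lowest, median and highest) and the fasted ones 4.21, 5.23, 5.05, 2.73 and 3.71 RPKM, and in the VMH the ranges overlapped (0.913 to 4.43 fed, 0.829 to 3.39 fasted). The mean change was 0.79 log2 (SE 0.13, adjusted p = 0.00131). Among 7 endothelial markers, Slc2a1 also rose in the mean change (0.59 log2, adjusted p = 0.000219) and the other 6 did not pass. The summed level of the 7 ran from 44.5 to 52.1 RPKM in the fed ARC and from 59.8 to 78.1 in the fasted ARC, and from 43.9 to 74.2 in the fed DMH and from 76.7 to 102 in the fasted DMH. Its mean was 117 ± 19.5 RPKM fed and 143 ± 17.2 fasted in the PVN, and 76.0 ± 17.1 and 73.1 ± 15.1 in the VMH. This sum and Angptl4 stood apart between states in the ARC and the DMH. Slc2a1 had the highest level of the 7 in both nuclei and weighs most in the sum. Its mean log2(RPKM + 1) was 4.38 fed and 5.12 fasted in the ARC, and 4.66 and 5.51 in the DMH. The single markers moved both ways. The changes in the ARC were 0.74 log2 for Slc2a1, 0.65 for Cldn5, 0.28 for Flt1 and 0.18 for Ly6c1. They were 0.01 for Slco1a4, −0.26 for Tek and −0.65 for Pecam1. In the DMH they were 0.85 log2 for Slc2a1, 0.56 for Ly6c1, 0.30 for Slco1a4 and 0.05 for Flt1. Pecam1, Cldn5 and Tek read −0.11, −0.15 and −0.25 there. The part of the endothelial markers in the change of Angptl4 was not tested.
Ucp2 (ENSMUSG00000033685), a mitochondrial carrier, ran from 14.2 through 18.0 to 22.5 RPKM in the fed PVN, and the fasted PVN libraries read 32.9, 30.5, 31.5, 25.0 and 23.7 RPKM. All fasted libraries stood above all fed ones. The change was 0.66 log2 in the PVN (SE 0.14, adjusted p = 0.0710) and 0.35 in the mean of the nuclei (SE 0.07, adjusted p = 0.0173). In the ARC the group means were nearly equal, at 24.6 ± 1.5 RPKM fed and 24.7 ± 3.6 fasted (n = 5 each). Of its exon bases, 4.36% overlap Dnajb13.
Fabp7 (ENSMUSG00000019874), the brain fatty acid-binding protein of astrocytes, ran from 30.9 through 51.7 to 93.9 RPKM in the fed VMH and from 14.0 through 21.7 to 26.7 RPKM in the fasted VMH, without overlap. It changed by −1.31 log2 in the VMH (SE 0.27, adjusted p = 0.0555) and by −1.03 in the mean (SE 0.14, adjusted p = 6.71e-05). Of 8 astrocyte markers, Aqp4 fell by 0.59 log2 in the mean change (adjusted p = 0.00131) and the other 7 did not pass, with a list median of −0.06. In the VMH alone, Aqp4 also passed (−0.94 log2, SE 0.19, adjusted p = 0.0477), and the other 7 did not. The summed level of the 8 ran from 509 to 728 RPKM in the fed VMH and from 484 to 582 in the fasted VMH, and its part in the change of Fabp7 was not tested.

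**Figure D4:**
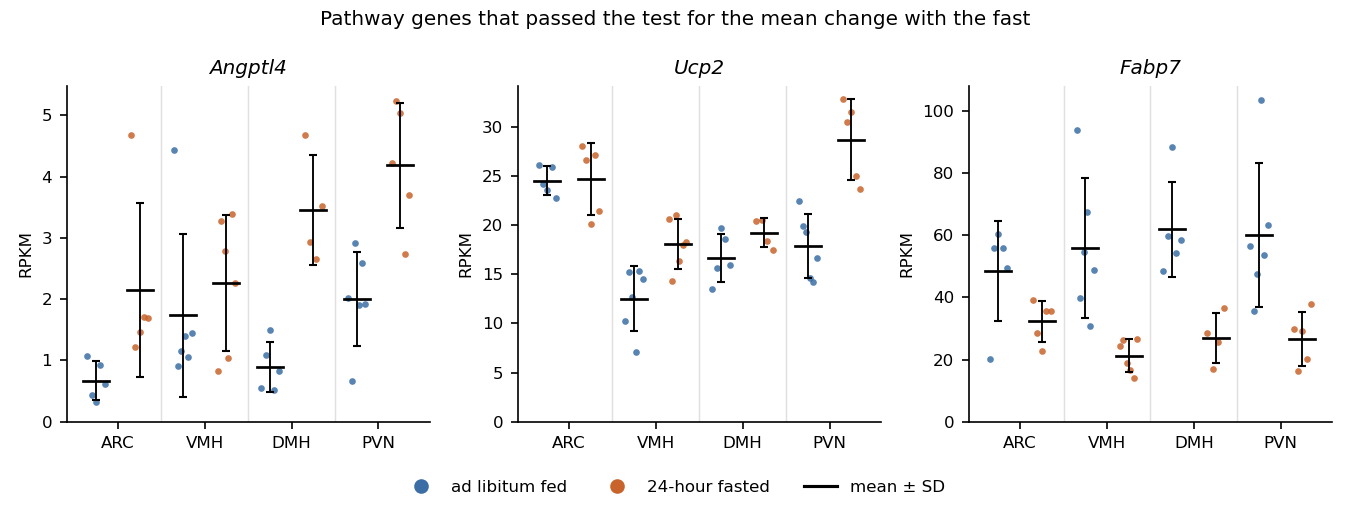
RPKM of Angptl4, Ucp2 and Fabp7 in every library, by nucleus and nutritional state, with the mean ± SD of each group. In the PVN the fasted means were 4.19 RPKM for Angptl4 and 28.7 for Ucp2 against 2.0 and 17.9 when fed, and in the VMH the mean of Fabp7 was 21.2 RPKM fasted against 55.9 fed.

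Between nuclei, 17 of the 56 pathway genes passed in the fed state and 12 in the fasted state, beside the shares of all genes given above (12.4% and 11.9%). In the fed state these included Cd36, Acsl1, Acsl3 and Acsbg1 of 12 uptake and activation genes, Acads, Hadhb and Etfdh of 13 beta-oxidation genes, Abcd2 of the peroxisomal genes, Bsg of the ketone genes, Ppargc1a, Rxra and Prkaa2 of 10 regulators, and Angptl4, Ucp2 and Plin2 of 5 PPAR targets. In the fasted state they included Acsl1, Acsl3, Acadvl, Hadhb, Decr1, Bsg, Ppargc1a, Rxra, Ucp2 and Pdk4.
Acads, the short-chain acyl-CoA dehydrogenase, was lowest in the fed VMH (0.757 ± 0.183 RPKM, n = 6) and highest in the fed ARC (2.79 ± 0.51, n = 5), with a range of 1.11 log2 (adjusted p = 0.000295). Hadhb, the partner subunit of Hadha, was also lowest in the fed VMH (3.98 ± 1.09 RPKM) and highest in the PVN (5.77 ± 0.34), with a range of 0.47 (adjusted p = 0.0621). Acsl3, an acyl-CoA synthetase, was by contrast highest in the VMH (64.7 ± 6.7 RPKM) and lowest in the ARC (48.2 ± 7.6), with a range of 0.42 (adjusted p = 0.00853).
Bsg, the chaperone that brings MCT1 to the cell surface, was highest in the PVN, at 270.1 ± 39.1 RPKM when fed and 261.7 ± 22.9 when fasted, and lay between 174 and 192 RPKM on average in the other nuclei. Ppargc1a, the coactivator of mitochondrial gene programmes, was highest in the PVN too (19.0 ± 1.6 RPKM fed, against 10.8 ± 2.1 in the fed VMH).

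The genes whose log2 levels ran most like each member over the 42 libraries were sought among 13750 genes with a mean of at least 5 RPKM. For Oxct1 they were Ppp3ca (Pearson r = 0.846) and Gpr26 (r = 0.831), over libraries that fall into a VMH group and the rest. For Cpt2 they were 2700016F22Rik and Polr3d (r = 0.695 each), and for Cpt1a Pou3f2 (r = 0.640) and Cckar (r = 0.589). For the other 7 members the 2 highest r lay between 0.518 for Bdh1 with Slc25a46 and 0.653 for Hadha with Alkbh6 and for Ppara with Gm26338. Among the members themselves the pair with the most negative r was Cpt2 and Oxct1 (−0.593), the genes that were lowest and highest in the VMH. All these values share nuclei, depth and batches, so they are descriptions without a test.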

How the data were processed

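RPKM values of 42 libraries (37907 Ensembl IDs) were analysed as deposited. Per the methods and processing notes of the study, nuclei were laser-captured in 3 batches, RNA was amplified (NuGEN Ovation V2) and sequenced single-end, reads were mapped with TopHat2 2.0.11 to GRCm38, edgeR and limma were used, and outlier samples were removed by the authors. The deposited RPKM held 0 values of 0. Recurring lowest values split the libraries into 3 batches of 10, 16 and 16, taken as those of the study but inferred here, and low values lay whole reads above them (98.2% to 99.1%, within 0.1 read), giving an added count of 4.99 reads in the mean library (1.45 to 14.5). Batch means of log2 values differed by 9.5e-08 in the median gene, against 0.152 with batches shuffled, so batch means had been removed before deposit. The fasted DMH had 0 libraries in batch 1, so the groups were not spread evenly over the batches. The main fit had no batch term to allow for this removal, so its p-values can be too small. The depth estimate of 1.32 to 13.2 M reads rests on exon lengths that matched within 1% for 75.8% of 19766 genes. Symbols and coordinates were from GENCODE M21 on GRCm38 (36049 IDs matched). Columns of no sample numbered 0. Pairs of libraries correlated at 0.981 at most, with 0 identical pairs.

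Groups followed the labels. log2(RPKM + 1) of 33579 genes with at least 1 RPKM in at least 4 libraries was fitted with limma 3.58.1 (R 4.3.3), 1 mean per group, Benjamini-Hochberg adjusted over all genes, threshold 0.1. Folds on this scale understate changes of low genes. Single genes were also tested by two-sided exact permutation (scipy 1.17.1). Nuclei of the same brain were treated as separate samples, because the labels do not tie them, so p-values between nuclei may be off. Those of the mean change over the nuclei can be too small. Replicate numbers showed no pairing of fed and fasted libraries (r from −0.122 to 0.0544 over 20 pairs) or of nuclei. Such values cannot tell whether nuclei of the same number share a mouse. limma was tested on simulated data. Alternatives were the pseudocount (0.1, 5), the filter, array weights, batch, depth and replicate block as terms, median centring, each nucleus alone, within-batch values and leaving out each library. All 10 members were named. Further pathway genes were named when they passed (some are not reported here), or as the 2 with the lowest p, and the 2 genes most alike each member by Pearson r. The members and lists were chosen with earlier results of these data known.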

Additional observations from a re-analysis of the deposited data

Results flagged for a closer look

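Of 104 group values examined (13 genes in 8 groups), 18 had a library that stood apart from the rest of its group by Dixon's criterion at the 95% level. For normally distributed values chance alone would give about 5.2. The criterion was applied to RPKM without a logarithm, where skewed values can give more, so an excess over chance was not tested. Among the carnitine palmitoyltransferase genes these were Cpt1a in fed VMH library 2 (10.9 RPKM, the others 2.65 to 5.63) and Cpt2 in fed DMH library 1 (8.38, the others 2.82 to 4.21). Cpt1c stood apart in fasted ARC library 3 (8.11, the others 13.9 to 16.2) and fed PVN library 1 (17.4, the others 9.50 to 12.4). Among the oxidation enzymes they were Acadm in fasted VMH library 2 (22.5 RPKM, the others 5.58 to 9.12), Acadl in fasted VMH library 6 (10.1, the others 2.88 to 4.23), and Hadha in fed ARC library 2 (10.8, the others 15.0 to 16.5), fed VMH library 6 (6.82, the others 11.8 to 13.7) and fed PVN library 3 (22.7, the others 11.99 to 15.7). Slc16a1 stood apart in fed VMH library 4 (8.73 RPKM, the others 2.09 to 4.35) and in fasted VMH library 2 (16.5, the others 3.47 to 3.98), the library that also held the highest Acadm. Ppara stood apart in fasted VMH library 1 (2.02 RPKM), fed DMH library 1 (1.26) and fasted PVN library 1 (2.06), at an estimated 10.2, 17.2 and 23.3 reads. Of the further pathway genes, Fabp7 was low in fed ARC library 1 (20.3 RPKM, the others 49.6 to 60.5) and high in fed DMH library 3 (88.4, the others 48.7 to 59.9), and Angptl4 was high in fasted ARC library 1 (4.67, the others 1.22 to 1.71) and fed VMH library 1 (4.43, the others 0.913 to 1.45).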

How the results depend on the processing

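Of the 8 counts of members that passed, 7 kept to within 1.5 times their value under every alternative run. The count of members that differed between fasted nuclei was 1, and became 2 with array weights, where Cpt1c was added (adjusted p = 0.0638). Leaving out 1 library at a time gave counts of 1 to 2, with 2 without library 3 of the fasted ARC (Cpt1c adjusted p = 0.0783). No member passed for a change with the fast under any of these alternatives. Between fed nuclei, Oxct1 (adjusted p from 0.000137 to 0.00357) and Cpt2 (0.000780 to 0.00948) passed in every alternative that kept them, Cpt1a was lost without library 4 or 5 of the fed PVN, and Hadha was lost with no filter (0.1001), with the batch (0.119) or depth (0.156) as a term, and in 12 leave-one-out fits. With the replicate block, 3 members differed between fed nuclei in place of 4, since Hadha no longer passed (adjusted p = 0.126), and the block changed no other call. Within each group the numbers ran in the order of the inferred batches, and Hadha was also lost with the batch as a term, as given above. Within-batch changes lay within 1 SD of the pooled change in 76 of 110 cases. The low depth of some libraries and amplification from little RNA limit Ppara and Cpt2 most, where a library holds few reads.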
